A study of Rattus norvegicus with 9 samples.

Results

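The microRNAs miR-133a and miR-133b were followed through the wall of the rat left ventricle. All annotated sequences of rat entries whose name stem was mir-133a or mir-133b were taken, whatever their match type, which gave 1425 of 31220 annotated rat sequences and 2 of 292 rat name stems. The tissue was the free wall of the left ventricle of 3 male Sprague-Dawley rats aged 8 months (hearts 6, 7 and 8). Each wall was cut into epicardium, mid-myocardium and endocardium, so that 3 libraries per layer and 9 in all were sequenced, and every heart gave all 3 layers. The groups differ in layer alone, and the layers are slices of whole tissue that hold myocytes, vessels, fibroblasts and blood. In such tissue a smaller number of cells of 1 type and less RNA per cell cannot be told apart.

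The miR-133 family is enriched in striated muscle, where it is transcribed together with miR-1 or miR-206 from shared precursor transcripts and is known for restraining cardiomyocyte proliferation and hypertrophic growth. A miRNA recognises its targets chiefly through its seed, the bases at nts 2 to 8 from its own 5′ end, so a read that begins at another nt carries another seed. Such length and sequence variants of the canonical miRBase sequence are called isomiRs. The strand of a hairpin that miRBase first recorded as the minor one is marked *, whatever its share of the reads here.

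The canonical sequences of RefSeq (build GRCr8) are given first, with the seed in capitals, because the 2 miRNAs can be told apart only at their last base. All 4 names matched an entry of the RefSeq table.
rno-miR-133a-3p: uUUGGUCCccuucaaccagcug
rno-miR-133b-3p: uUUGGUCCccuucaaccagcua
rno-miR-133a-5p: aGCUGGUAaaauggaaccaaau
rno-miR-133b-5p: gCUGGUCAaacggaaccaagu

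The first of these, the mature strand of miR-133a, lies at chr18:2157886-2157907 on the minus strand, within the hairpin at chr18:2157872-2157958. The hairpin of miR-1 lies beside it at chr18:2160327-2160413, also on the minus strand. Reads of miR-133a were placed on the chr18 hairpin alone. Reads of any other gene with the same mature strand could not be told from these. The mature strand of miR-133b lies at chr9:30594629-30594650 on the plus strand, within the hairpin at chr9:30594582-30594665, and the hairpin of miR-206 lies beside it at chr9:30590697-30590780. Numbering begins with 1 at the first base of the mature strand. By it the mature sequences differ by G22A, from miR-133a to miR-133b, and by nothing else, so that a read ending before nt 22 fits both. The base that follows nt 22 in the hairpin is u for miR-133a and c for miR-133b.

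The isomiRs that carried most of the reads are shown next as DNA, as the sequencer read them, with the bases at nts 2 to 8 of each read in capitals.
start at nt 2, end at nt 23: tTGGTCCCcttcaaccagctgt
start at nt 1, end at nt 23: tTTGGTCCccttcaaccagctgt
canonical, start at nt 1 and end at nt 22: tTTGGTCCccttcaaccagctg
start at nt 2, end at nt 22: tTGGTCCCcttcaaccagctg
start at nt 2, end at nt 24: tTGGTCCCcttcaaccagctgta
canonical miR-133a*: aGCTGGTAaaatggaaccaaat
miR-133a*, 1 nt shorter: aGCTGGTAaaatggaaccaaa
canonical miR-133b: tTTGGTCCccttcaaccagcta
miR-133b, start at nt 2: tTGGTCCCcttcaaccagcta
miR-133b, start at nt 2 and 1 added A: tTGGTCCCcttcaaccagctaa

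Those that start at nt 1 carry the canonical seed, while those that start at nt 2 carry a seed moved by 1 base. The 1425 sequences held 665369 reads, of which 653026 had an entry naming miR-133a alone, 12106 an entry naming both miR-133a and miR-133b, and 237 an entry naming miR-133b alone. Of the 12106 reads with both names 10623 ended before nt 22, and all of them were counted with miR-133a, whose name comes first. Of the sequences 642 (45.1%) had 1 read over all libraries, and 330 had at least 10. Annotated reads per library ran from 283991 in the mid-myocardium of heart 6 to 1428025 in the endocardium of heart 7, so that 3 reads stood for 2.10 to 10.6 reads per 1000000 annotated reads (RPMM).

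By reads, miR-133a was one of the most abundant miRNAs of every layer. Reads of both miRNAs together made up between 4.77% (95% Wilson interval 4.72 to 4.81, epicardium of heart 8) and 13.2% (13.2 to 13.3, mid-myocardium of heart 8) of the annotated reads of a library, and these intervals cover counting error only. miR-133a ranked between 2 and 4 among the 437 rat miRNA and * entries in every library. This ranking leaves out miR-486, which had no rat entry. Counted over entries of all species, the mean of miR-486 over the 9 libraries was 142385 RPMM, against 89555 for miR-133a. The level of miR-133a in hearts 6, 7 and 8 was 100234, 94451 and 47493 RPMM in epicardium. It was 99172, 96671 and 132024 RPMM in mid-myocardium and 86161, 55148 and 94642 RPMM in endocardium. The epicardium of heart 8 and the endocardium of heart 7 were low, the mid-myocardium of heart 8 was high, and the other 6 libraries lay between 86161 and 100234 RPMM. The low libraries came from different hearts and different layers.

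By layer, miR-133a was highest in mid-myocardium (109289 ± 19729 RPMM, SD, n = 3), then in epicardium (80726 ± 28925) and endocardium (78650 ± 20791), and no neighbours in this order differed beyond the spread between hearts. In a limma fit of log2(RPMM + 1) over the 228 grouped rat miRNAs with at least 10 reads in a library, the Benjamini-Hochberg adjusted p of miR-133a across the 3 layers was 0.927. The log2 difference of endocardium from epicardium was 8.09e-05 with an SE of 0.345 and a 95% interval from -0.773 to 0.773. It was -0.345 without the epicardium of heart 8 and 0.237 without the endocardium of heart 7. Mid-myocardium was above epicardium by 0.498 on the log2 scale (interval -0.275 to 1.27). These intervals leave room for differences of over 1.5-fold in either direction between the outer layers. Of the 228 miRNAs, 0 (0%) passed the adjusted threshold of 0.05 for the 3 layers and 0 (0%) for endocardium against epicardium, with 11 and 13 at an unadjusted p under 0.05. edgeR and DESeq2 also gave 0 in both. Between hearts 0 of 228 passed by limma (0%, 28 at an unadjusted p under 0.05), 7 by edgeR and 10 by DESeq2, and none of these was a miR-133 entry. The limma adjusted p for miR-133a between hearts was 0.898.

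miR-133a*, the 5p arm of the same hairpin, was read far less often than its partner strand. Its level was 378, 483 and 156 RPMM in the epicardium of hearts 6, 7 and 8. It was 264, 212 and 321 RPMM in mid-myocardium and 253, 132 and 209 RPMM in endocardium. The layers overlapped, and the epicardium held both the highest and one of the lowest values. Endocardium was below epicardium by a log2 difference of -0.671 (SE 0.427, interval -1.63 to 0.285, limma adjusted p = 0.989).

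miR-133b had few reads, between 17 and 42 per library, and ranked between 142 and 178 among the 437 rat entries. Its level was 24.5, 45.4 and 25.8 RPMM in the epicardium of hearts 6, 7 and 8, from 23, 35 and 24 reads. It was 59.9, 41.2 and 18.05 RPMM in mid-myocardium and 59.0, 16.8 and 28.9 RPMM in endocardium, from 17, 31 and 19 and from 42, 24 and 22 reads. The layers overlapped over their whole range, and the log2 difference of endocardium from epicardium was 0.00537 (SE 0.527, interval -1.18 to 1.19, limma adjusted p = 0.998). Its intervals are the widest of the 3 entries, at 17 to 42 reads per library.

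**Figure D1:**
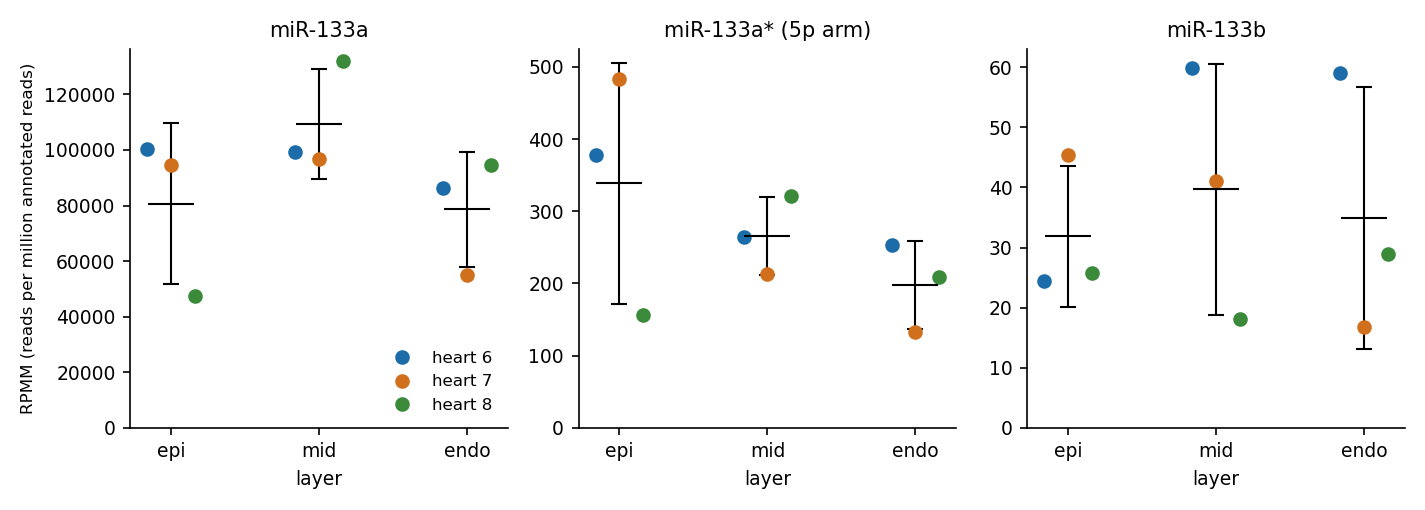
Level of miR-133a, miR-133a* and miR-133b in RPMM (y axis, linear from 0) in the 3 layers (x axis), with 1 point per library coloured by heart and the mean ± SD of 3 hearts in black. The miR-133a points of the epicardium of heart 8 (47493 RPMM) and the endocardium of heart 7 (55148 RPMM) lie apart from the others of their layers, and the layers overlap in every panel.

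Single miR-133 sequences were tested in the same way. Of the 491 unique rat sequences that averaged 100 RPMM or more in a layer, 24 were miR-133 sequences. None of these 24 passed the limma test across layers or across hearts, with 0 at an unadjusted p under 0.05 in either. Over all 491 sequences 0 (0%, 10 at an unadjusted p under 0.05) passed across layers and 32 (6.52%, 76 at an unadjusted p under 0.05) across hearts. The smallest p among the 5 most abundant miR-133a sequences across layers was 0.276, for the sequence with start at nt 2 and end at nt 23.

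That sequence, the isomiR without nt 1 and with 1 added nt at the 3′ end, was the most abundant of all miR-133 reads in 7 of 9 libraries. It was read at 43717, 39841 and 17467 RPMM in the epicardium of hearts 6, 7 and 8. It was read at 42480, 40810 and 60522 RPMM in mid-myocardium and at 35764, 20841 and 39499 RPMM in endocardium. The form with the canonical start and the same 3′ end came to 37349, 32242 and 19749 RPMM in epicardium. In mid-myocardium it came to 34677, 34521 and 49069 RPMM and in endocardium to 30718, 22033 and 35537 RPMM. The canonical-start form was therefore the more abundant only in the epicardium of heart 8 and the endocardium of heart 7, the libraries with least miR-133a.

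The canonical 22-nt sequence was far below both. It was read at 4412, 5764 and 3186 RPMM in the epicardium of hearts 6, 7 and 8. It was read at 5384, 5556 and 4868 RPMM in mid-myocardium and at 4841, 3976 and 4712 RPMM in endocardium. Its levels spanned a narrower range than those of the abundant forms, and the mid-myocardium of heart 8, highest in the abundant forms, was not highest here. The sequence from nt 2 to nt 22 ran from 1268 RPMM in the epicardium of heart 8 to 2589 in the mid-myocardium of heart 7. The sequence from nt 2 to nt 24 ran from 610 RPMM in the epicardium of heart 8 to 2181 in the mid-myocardium of heart 8. On the other arm, canonical miR-133a* ran from 70.03 RPMM in the endocardium of heart 7 to 296 in the epicardium of heart 7. Its form without the last nt ran from 13.3 RPMM in the mid-myocardium of heart 7 to 61.0 in the epicardium of heart 7.

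Reads were next placed on the hairpin of miR-133a by their first nt. Of the miR-133a reads outside the * arm, 662409 were placed on the 3p arm and 750 could not be placed. Over the 9 libraries 51.7% ± 3.07 of the placed reads started at nt 2, 46.9% ± 3.15 at nt 1, 0.913% ± 0.0944 at nt 3 and 0.454% ± 0.0498 later, while 0.0806% ± 0.0168 started before nt 1. Most miR-133a reads thus carried 1 of 2 seeds, in nearly equal parts.

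The share of reads without nt 1 was 54.5%, 55.4% and 47.2% in the epicardium of hearts 6, 7 and 8. It was 55.0%, 54.2% and 55.8% in mid-myocardium and 53.8%, 48.1% and 53.2% in endocardium. The epicardium of heart 8 and the endocardium of heart 7 lay at least 5 percentage points below the other 7 libraries, which lay between 53.2% and 55.8%. An exact two-sided permutation test over all 1680 assignments of the libraries to the 3 layers gave p = 0.361 for this share (adjusted p = 0.850 over 7 shares, the smallest possible p being 0.00357), and the test across hearts p = 0.725 (adjusted p = 0.839).

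The libraries with less miR-133a had a lower share of reads without nt 1. Pearson's r of the share with the level of miR-133a was 0.921 and Spearman's rho 0.783 over the 9 libraries, and r was 0.675 over the 7 libraries left without the epicardium of heart 8 and the endocardium of heart 7, which were farthest from the median level. The share and the level come from the same reads of the same libraries, so this is given as a description. Of the 6 other shares, that ending past nt 22 was higher where the level was higher (r = 0.842, rho = 0.917), and that of the exact canonical sequence was lower (r = -0.896, rho = -0.867). The remaining 4 followed the level less closely over the 9 libraries. Their r was -0.333 for shorter 3′ ends, 0.0417 for mismatches, -0.0491 for the * arm and -0.398 for miR-133b. Over the same 7 libraries as above r was -0.601, -0.896, -0.234 and -0.733, respectively. Over these 7 the shares of mismatches and of miR-133b were thus lower where the level was higher.

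**Figure D2:**
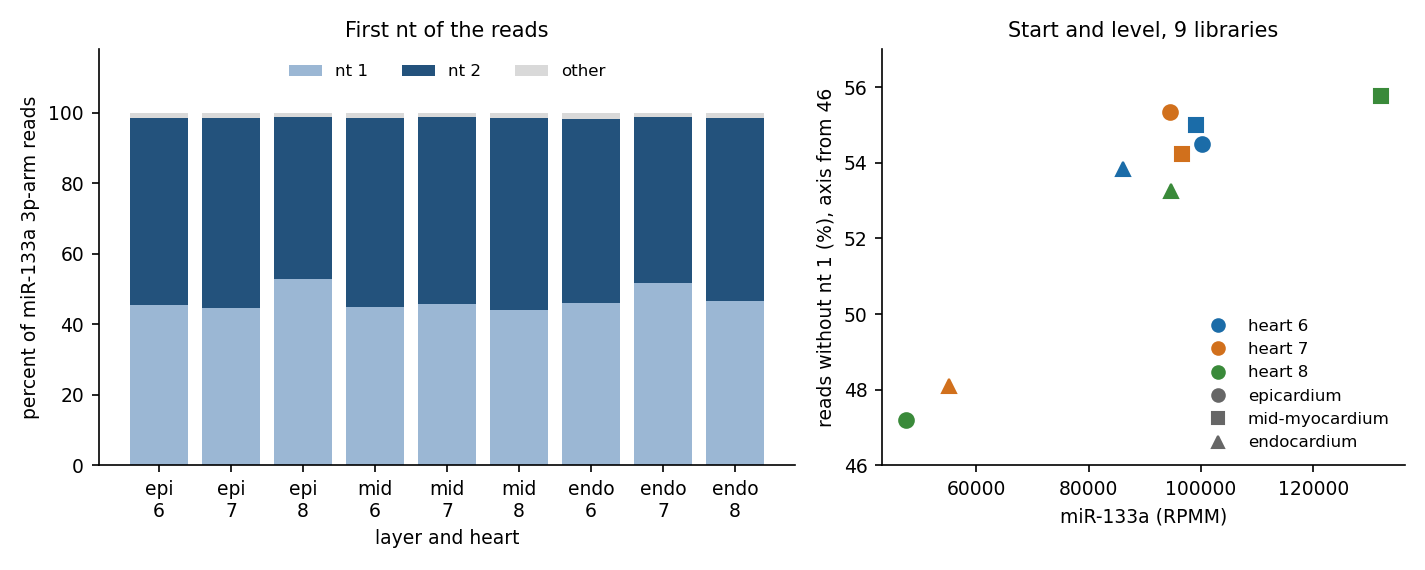
Left, first nt of the miR-133a reads of the 3p arm as percent of these reads (y axis) in each library (x axis, layer and heart), stacked as nt 1, nt 2 and other starts. Right, percent of reads without nt 1 (y axis, from 46) against miR-133a in RPMM (x axis) for the 9 libraries, with colour for heart and shape for layer. The epicardium of heart 8 (47.2%) and the endocardium of heart 7 (48.1%) lie at the lower left, and the other libraries lie between 53.2% and 55.8%.

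A start at nt 2 was rare among other abundant miRNAs. The same placement was run for the 52 rat miRNA and * entries with a single mature sequence and a mean of at least 1000 RPMM. miR-133a was ranked 2 by the share of reads that start at nt 2 (51.8% ± 3.09 of its mature-type reads), after miR-140* (54.2% ± 3.60). miR-126 followed at 20.6% ± 1.35, miR-10a at 19.2% ± 1.53 and miR-378 at 12.4% ± 1.68, and 40 of the 52 entries were under 1%. The shares of these miRNAs did not all vary alike over the libraries. That of miR-10a was also lowest in the epicardium of heart 8 (16.01%) and next lowest in the endocardium of heart 7 (18.1%), whereas that of miR-378 was highest in the endocardium of heart 7 (15.0%) and next highest in the epicardium of heart 8 (15.0%). That of miR-126 was in the middle of its range in both (20.5% and 21.1%). That of miR-140* was lowest in the epicardium of heart 7 (47.4%) and next lowest in the epicardium of heart 8 (48.9%). In the endocardium of heart 7 it was 54.2%.

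**Figure D3:**
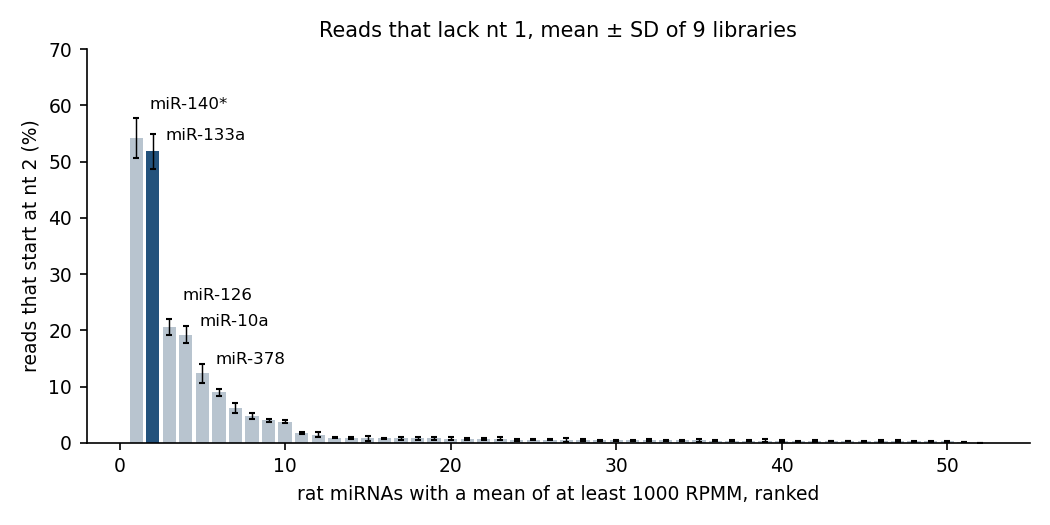
Percent of mature-type reads that start at nt 2 (y axis, mean ± SD of 9 libraries) for 52 abundant rat miRNA and * entries ranked by this share (x axis), with miR-133a in dark blue. miR-140* and miR-133a are above 50%, and the entry ranked next, miR-126, is at 20.6%.

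The 3′ end of miR-133a was nearly as uniform as its 5′ end was divided. Of the placed reads 89.9% ± 1.66 ended past nt 22, 8.36% ± 1.47 at nt 22 and 1.71% ± 0.384 before it. The single templated base at nt 23, a T in the reads, was the end of 81.4% ± 2.06 of the reads, and 2.21% ± 0.224 ended at the templated nt 24. Here templated means that the base matches the hairpin. A T added at nt 23, or an A added at nt 24, would match it too and cannot be told apart. Reads with 3 templated nts past nt 22 made up 0.0278% ± 0.00397. Reads of 22 nts (48.8% ± 1.87) and 23 nts (41.7% ± 2.06) made up most of the total, and most of the 22-nt reads were not the canonical sequence but the form that starts at nt 2 and ends at nt 23.

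Bases that do not match the hairpin ended 6.33% ± 0.951 of the reads. Tails of T alone were on 2.92% ± 0.530 of the reads, tails of A alone on 2.55% ± 0.412, mixed A and T on 0.446% ± 0.107, and tails with a G or C on 0.423% ± 0.0877. Added U and A are the bases that terminal nucleotidyl transferases of the cell are known to attach to miRNAs, but the source of these tails was not tested. The last 2 kinds differed by less than the spread between libraries.

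The 3′ end differed between reads with different 5′ starts, in the same direction in 9 of 9 libraries for each class of end. Non-templated tails were on 3.36% ± 0.334 of the reads that start at nt 1 and on 8.80% ± 1.30 of those that start at nt 2, a ratio between 2.33 and 2.83. Ends at the templated nt 24 were on 1.18% ± 0.105 and 3.11% ± 0.276, respectively. The canonical end at nt 22 was the end of 12.2% ± 1.92 of the reads that start at nt 1 and of 4.95% ± 0.900 of those that start at nt 2. Shorter ends made up 2.67% ± 0.668 and 0.850% ± 0.162. The share ending at nt 23 was close in both, at 80.6% ± 2.53 and 82.3% ± 1.73, with a difference of 0.300 to 3.84 percentage points. Reads that start at nt 2 thus reached further at the 3′ end and less often stopped at or before nt 22. The further bases were both such as match the hairpin and such as do not. An A at nt 24 matches the hairpin whether templated or added. The libraries come in threes from a heart, and over the means of the 3 hearts the smallest p that an exact sign permutation allows is 0.250, which each of these differences reaches.

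**Figure D4:**
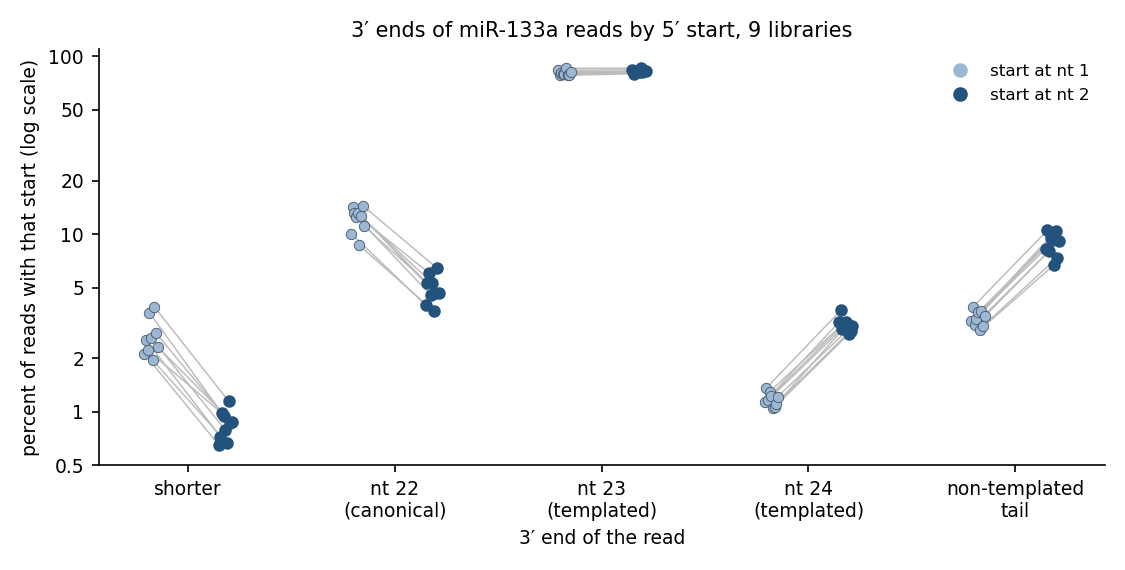
Percent of reads with a given 5′ start (y axis, log scale) by kind of 3′ end (x axis), for miR-133a reads that start at nt 1 (light) and at nt 2 (dark), with a line joining the 2 values of each of the 9 libraries. The lines fall for ends at or before nt 22 and rise for ends at nt 24 and for non-templated tails, where the means are 3.36% and 8.80%.

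Substitutions inside the mature sequence were few, and 98.0% ± 0.167 of the placed reads matched it over all the bases they covered up to nt 22. Of the 54 possible changes at nts 1 to 18, the most frequent were C16T, with 0.355% ± 0.0815 of the reads covering that base, and C17T, with 0.196% ± 0.0460. The next was T6C at 0.0873% ± 0.0118, and the change from C to T at the 5 other C positions ran from 0.0191% to 0.0602%. C16T was counted in 0.286%, 0.314% and 0.480% of the reads in the epicardium of hearts 6, 7 and 8. It was counted in 0.306%, 0.370% and 0.271% in mid-myocardium and in 0.317%, 0.496% and 0.353% in endocardium. The epicardium of heart 8 and the endocardium of heart 7 were again apart, here at the upper end. C16T was on 0.239% ± 0.0626 of the reads that start at nt 1 and 0.463% ± 0.121 of those that start at nt 2. Reads that carry the change, such as the most frequent of them (C16T in capitals), were left with an unchanged seed.
C16T, start at nt 2: ttggtccccttcaaTcagctgt

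The * arm held 0.376%, 0.509% and 0.327% of all miR-133a reads in the epicardium of hearts 6, 7 and 8. It held 0.266%, 0.219% and 0.243% in mid-myocardium and 0.293%, 0.239% and 0.221% in endocardium. The 3 epicardial shares lay above the 6 others without overlap, at a mean of 0.404% ± 0.0941 against 0.243% ± 0.0232 in mid-myocardium and 0.251% ± 0.0375 in endocardium. The exact permutation test across layers gave p = 0.0286, which did not pass after adjustment over the 7 shares (adjusted p = 0.200), and p = 0.0833 with layers permuted within hearts. Across hearts the p of the exact permutation test for this share was 0.839. Of the 7 shares 0 passed the adjusted threshold across layers and 0 across hearts, with the share of the * arm across layers being the single p under 0.05.

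The remaining shares did not separate layers or hearts. The exact canonical sequence made up 5.55% ± 1.10 of the miR-133a reads over the 9 libraries (adjusted p = 0.850 across layers and 0.706 across hearts, exact permutation test). Reads with a mismatch by the match type of the annotation, which include the tails, made up 8.23% ± 0.938 (adjusted p = 0.975 and 0.706, exact permutation test). Reads named miR-133b made up 0.0413% ± 0.0180 of all miR-133 reads, between 0.0136% in the mid-myocardium of heart 8 and 0.0683% in the endocardium of heart 6 (adjusted p = 0.975 and 0.720, exact permutation test).

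Whether the reads named miR-133b came from its gene was looked at base by base. Among reads that match the shared sequence up to nt 21 and reach nt 22, G stood at nt 22 in 638957 reads, T in 637, A in 391 and C in 299. The A of miR-133b was thus read in 0.0611% of them, less often than the T, which neither hairpin has at this place. After that A, the read ended in 134 cases, went on with T in 169, with A in 76, with C in 9 and with G in 3. C is the base that follows in the miR-133b hairpin, and T the base that follows at nt 23 in that of miR-133a. Where nt 22 was the G of miR-133a, the templated T followed in 579302 reads (90.7%). The templated continuation past nt 22 was therefore seen in 2.30% of the reads with A and in 90.7% of those with G.

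The canonical miR-133b sequence was read at 11.7, 23.4 and 10.7 RPMM in the epicardium of hearts 6, 7 and 8. It was read at 14.1, 15.9 and 2.85 RPMM in mid-myocardium and at 14.1, 6.30 and 6.58 RPMM in endocardium. Its form with a start at nt 2 ran from 3.19 RPMM (3 reads) in the epicardium of heart 6 to 17.6 (5 reads) in the mid-myocardium of heart 6, the library with fewest reads. The form with a start at nt 2 and 1 added A ran from 2.85 to 15.5 RPMM. Each of these 3 sequences had between 3 and 18 reads in a library, so their ranges rest on few reads. Of all miR-133 sequences 7, with 142 reads, matched the miR-133b hairpin alone without a mismatch. The 5p arm of miR-133b had 0 reads in 9 libraries, which allows a level of up to 2.10 to 10.6 RPMM by library. miR-206, whose hairpin lies beside that of miR-133b, had 1 read, in the endocardium of heart 6. Reads that end at an A at nt 22 cannot be told apart as miR-133b or as miR-133a with an A in place of the G. The same holds for reads that go on after this A with a base that follows in neither hairpin. It also holds for those that go on with T, since T is also found as an added base.

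The other muscle miRNAs were set beside miR-133a, with 0% of the 228 entries called as background. Beside miR-133a and miR-133b the list held miR-1, which shares a precursor transcript with miR-133a, miR-206, miR-208, miR-208a and miR-208b, which lie in introns of myosin heavy chain genes, and miR-499 from another myosin intron. No rat entry had the name miR-208a, and whether the entry miR-208 stands for it was not looked up. miR-206 had too few reads for a test. miR-486 of muscle and red cells was read over entries of all species and was not among the grouped rat miRNAs tested. Of miR-1, miR-208, miR-208b and miR-499, 0 of 4 passed across layers or across hearts by limma. The cardiac members were read in every library, miR-208 at 243 to 968 RPMM, miR-208b at 1587 to 3601 and miR-499 at 539 to 1535. miR-1 was at 3833, 4813 and 3287 RPMM in epicardium, 4377, 4121 and 5851 in mid-myocardium and 2664, 3517 and 4944 in endocardium of hearts 6, 7 and 8. Its level stood at a mean of 4156 ± 966 RPMM over the 9 libraries, and its highest value, like that of miR-133a (mean 89555 ± 25187 RPMM), was in the mid-myocardium of heart 8. The paper holds it possible that these libraries under-represent miR-1, because its quantitative PCR placed miR-1 above miR-22 and miR-486. Read levels of different miRNAs thus need not give their order of abundance in the tissue.

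The miRNA most like miR-133a over the libraries, among 55 entries with a mean of at least 1000 RPMM, was miR-26a, with Pearson's r of 0.974 and Spearman's rho of 0.933 over the 9 libraries. Its r was 0.917 without the epicardium of heart 8 and the endocardium of heart 7. let-7d followed (r = 0.929, rho = 0.817) and miR-199a (r = 0.912, rho = 0.617), and their r fell to 0.668 and 0.409 without these libraries. The values share the total of annotated reads of each library, on which all of them were normalised. miR-26a was at 33931 RPMM in the epicardium of heart 8 and at 33167 in the endocardium of heart 7, against 45587 to 63136 elsewhere.

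Some other abundant miRNAs, such as miR-486 and miR-143, were high where miR-133a was low. miR-22 was not, at 135275 RPMM in the epicardium of heart 8 and 101159 in the endocardium of heart 7, against 134285 to 185035 elsewhere. miR-486, counted over entries of all species, was at 162352 RPMM in the epicardium of heart 8 and 228287 in the endocardium of heart 7, against 92952 to 149053 elsewhere. miR-143 of smooth muscle was at 153275 and 141946 RPMM there against 90078 to 123351 elsewhere. Both smooth muscle markers were detected, and their summed level was 154241 and 143841 RPMM in these libraries against 91344 to 124732 in the others. Nearly all of this sum was miR-143, and miR-145, the other marker, was at 966 and 1894 RPMM there against 1265 to 3125 elsewhere. The summed level of the 2 red cell markers, miR-451 and miR-144, was 426 and 561 RPMM there and 509 to 1025 in the others, the summed level of the 3 endothelial markers 4295 and 3431 against 5359 to 8483, that of the 2 fibroblast markers 1512 and 1476 against 2253 to 2832, and that of the 4 leukocyte markers 6819 and 9845 against 8790 to 14093. Most of the leukocyte sum was miR-150, while miR-146a was at 1093 and 1148 RPMM there against 700 to 1148 elsewhere. Likewise miR-126, miR-199a and miR-451 made up most of the endothelial, fibroblast and red cell sums. Of the smaller members, miR-221 was at 71.9 and 76.3 RPMM there against 103 to 191 elsewhere, and miR-222 at 37.6 and 69.3 against 66.0 to 106. miR-214 was at 95.5 and 137 RPMM against 105 to 207, and miR-144 at 50.4 and 51.8 against 18.3 to 123. All members of these lists were detected. The share of annotated reads on rat entries was 80.8% in the epicardium of heart 8, 73.8% in the endocardium of heart 7 and 82.4% to 86.1% elsewhere. The part of these values in the low miR-133a of the same libraries was not tested.

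**Figure D5:**
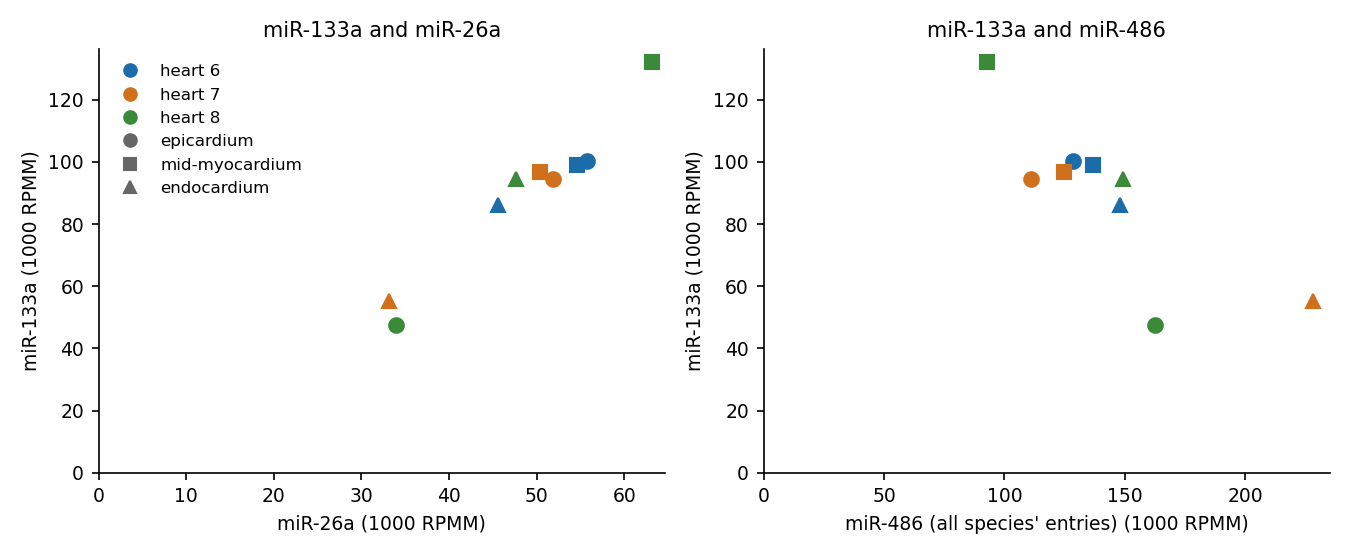
miR-133a (y axis, 1000 RPMM) against miR-26a (left) and miR-486 (right, x axis, 1000 RPMM) in the 9 libraries, with colour for heart and shape for layer and both axes from 0. miR-133a rises with miR-26a over all libraries (r = 0.974), and the epicardium of heart 8 and the endocardium of heart 7 have the lowest miR-133a and the highest miR-486.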

How the data were processed

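Small RNA of 9 pieces of left ventricular wall was made into TruSeq libraries. The authors trimmed the reads, annotated them to miRBase 18 with CLC Genomics Workbench 4.0, allowing up to 2 mismatches and a few nts added or removed at either end, and deposited each annotated sequence as RPM of the annotated reads (RPMM). Reads with longer additions fall outside this annotation. The authors deposited unannotated sequences as a raw count of reads. The largest distance of an annotated value from a whole number of reads was 0.00011, and the reads were recovered and summed by name stem.

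limma 3.58.1 (R 4.3.3) was fitted to log2(RPMM + 1) over all 9 libraries, with Benjamini-Hochberg adjustment, a threshold of 0.05 and at least 10 reads in a library, or a mean of 100 RPMM or more in a layer for unique sequences. Hearts were compared with layer as a covariate. Shares carry exact permutation tests of the F statistic. miR-133a reads were placed on the RefSeq hairpin, with up to 2 mismatches up to nt 22. edgeR 4.0.16 and DESeq2 1.42.0 on the recovered counts were alternatives. Python 3.11.15, scipy 1.17.1, numpy 2.4.6, pandas 2.3.3 and, for plots, matplotlib 3.10.9 did the rest. The fits and the placement were tested on simulated data.

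Layers with the same number come from 1 heart, by the sample labels. Deviations from the layer means correlated at a mean of 0.149 within hearts (-0.282 to 0.394, 9 pairs) and -0.0724 between hearts. Named sequences were the most abundant of each entry (5 for miR-133a, 2 for the * arm, 3 for miR-133b) and any past the threshold. Base changes and ends by start were described beyond that rule. The members and lists were chosen with earlier results of these data known. Since no molecular identifiers were used, amplified copies count as separate reads, and intervals and floors cover counting error only.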

Additional observations from a re-analysis of the deposited data

Results flagged for a closer look

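Reads of miR-133a were also found among the deposited unannotated sequences, which entered no comparison. Of 13317 unannotated sequences 3 held nts 4 to 17 of miR-133a, at a length of 29 or 30 nts, with 219 reads over the 9 libraries and 11 to 50 in a library, equal to 15.0 to 47.5 RPMM. They were singled out because they carry a miR-133a signal outside the annotated reads, above the limit that a count of 0 allows. All 3 held the templated nt 23, 1 started at nt 1 and 2 at nt 2, and after nt 23 they went on with the bases with which the 3′ adapter of the library kit begins. In all, 40 unannotated sequences (0.300%) ended in these bases.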

How the results depend on the processing

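No miR-133 entry and no miR-133 share passed the adjusted threshold under the main setting or any alternative (0 of 371 values over all settings, adjusted p from 0.125 to 1). The log2 difference of endocardium from epicardium, near 0 for miR-133a and miR-133b, changed sign: miR-133a was at -0.0423 with TMM normalization, -0.0245 with DESeq2's size factors, -0.0731 with edgeR, -0.0511 with DESeq2 and -0.0376 with Baggerley's test, and miR-133b at -0.0362 with TMM and -0.0188 with DESeq2's size factors. With single libraries left out it ran from -0.345 to 0.237 for miR-133a, from -0.454 to 0.423 for miR-133b and from -1.15 to -0.341 for miR-133a*. With the heart number as replicate block, 0 grouped miRNAs were called between layers and 0 between endocardium and epicardium, and the block changed no call on a miR-133 entry, sequence or share.

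Grouped miRNAs called between hearts numbered 0 by limma, 1 with DESeq2's size factors, 1 on the total of rat reads, 5 with a pseudocount of 10, 7 by edgeR and 10 by DESeq2, and 0 to 3 with a library left out. The cause was not tested. With a library left out, between 0 and 1 grouped miRNAs were called across layers and between 0 and 1 for endocardium against epicardium (1 without the endocardium of heart 7 in each), 0 to 33 unique sequences across hearts (0 without the epicardium of heart 6), and 0 unique sequences or shares across layers. The number of hearts (3) and the low counts of miR-133b limit the differences that can be seen.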
